A study of Homo sapiens with 14 samples.

Results

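The 10 genes described here encode the uptake and breakdown of glucose: the transporter SLC2A1 and the glycolytic enzymes HK2, ALDOA, TPI1, GAPDH, PGK1, PGAM1, ENO1, PKM and LDHA. They were taken by name from a table of read counts for 58434 gene symbols, as a list of names with no threshold on their values. GAPDH protein was a control on immunoblots in the study. MDA-MB-231, an established human triple-negative breast cancer cell line, carried a doxycycline (Dox)-inducible short hairpin RNA (shRNA), which targeted DAP5 in MB-231-shDAP5 cells and was a non-silencing (NS) construct in MB-231-shNSi cells. DAP5, the product of EIF4G2, is a relative of the scaffold eIF4GI that does not bind the cap-binding protein eIF4E, and the study asked which mRNAs need it for translation. It classed GAPDH mRNA as independent of DAP5 and reported GAPDH protein as unchanged by silencing.

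Both lines were stable lines made with the lentiviral pTRIPZ vector, selected with puromycin and sorted for red fluorescence, with 1 hairpin sequence each, and both received Dox at 1 µg/ml for 6 days, so the control carried the vector, a hairpin and the drug as well. Each line was sampled as 2 replicates, called cultures here, and each culture gave a library of total mRNA, of light polysomes (2 to 3 ribosomes) and of heavy polysomes (4 or more ribosomes). The shNSi cultures also gave a moderate polysome pool, for 14 libraries in all. The shDAP5 light libraries were titled light but bore the code that the shNSi moderate libraries bore, and the shDAP5 total libraries were titled as total polysome. Titles were followed, so each comparison with shDAP5 light or total mRNA rests on that reading. The shDAP5 cultures had no moderate pool, and the labels do not say whether heavy polysomes were cut alike in both lines. Each comparison of heavy polysomes between the lines therefore takes the heavy pools as like. P-values measure the spread between 2 replicates of the same stable lines, which the study calls independent.

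Glycolysis splits glucose into pyruvate in the cytosol and yields ATP without oxygen. Many cancer cells run it fast even when oxygen is present and pass much of the pyruvate on to lactate. SLC2A1 (GLUT1) brings glucose into the cell, and HK2 phosphorylates it so that it stays there. ALDOA cleaves the doubly phosphorylated sugar, TPI1 interconverts the products, GAPDH makes NADH, PGK1 and PKM make ATP, PGAM1 and ENO1 lie between them, and LDHA turns pyruvate into lactate. The mRNAs are mostly short, abundant and well translated. On a sucrose gradient an mRNA sediments by the number of ribosomes it carries, so a short coding sequence limits how far into the heavy fractions it can travel.

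The start codon is where initiation by the DAP5 and eIF4E routes ends, so the surrounding bases are shown for each of the 10 mRNAs. Each line gives 12 bases of the 5′ leader, the start codon in capitals and 4 bases of coding sequence, from the GENCODE v29 principal transcript (GRCh38), with the genomic position of the start codon in GRCh38, its strand and the length of the coding sequence.
SLC2A1, chr1:42958649-42958651, minus strand, coding sequence 1476 nucleotides: cgcagcgctgccATGgagc
HK2, chr2:74834581-74834583, plus strand, coding sequence 2751 nucleotides: ggccgcggcaggATGattg
ALDOA, chr16:30067255-30067257, plus strand, coding sequence 1092 nucleotides: actaccagcaccATGccct
TPI1, chr12:6867567-6867569, plus strand, coding sequence 747 nucleotides: ggctccagcgccATGgcgc
GAPDH, chr12:6534833-6534835, plus strand, coding sequence 1005 nucleotides: cgctcagacaccATGggga
PGK1, chrX:78104341-78104343, plus strand, coding sequence 1251 nucleotides: tgtatttccaaaATGtcgc
PGAM1, chr10:97426308-97426310, plus strand, coding sequence 762 nucleotides: cagcccgccgccATGgccg
ENO1, chr1:8874906-8874908, minus strand, coding sequence 1302 nucleotides: tagaagttcaccATGtcta
PKM, chr15:72219095-72219097, minus strand, coding sequence 1593 nucleotides: acctcagcagccATGtcga
LDHA, chr11:18396843-18396845, plus strand, coding sequence 996 nucleotides: tccaagtccaatATGgcaa

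In the usual Kozak context a purine stands 3 bases before the start codon and a G follows it. All 10 mRNAs held the purine, against 85% of 18663 annotated genes, and 5 of 10 (SLC2A1, TPI1, GAPDH, PGAM1 and LDHA) held the G, against 50.8%. Coding length differed more, from 747 nucleotides in TPI1 to 2751 in HK2. The 5′ leader differed from 36 nucleotides in TPI1 to 680 in ENO1. These are annotated models, and which start sites or isoforms the cells used cannot be read from counts per gene. PKM counts therefore sum its M1 and M2 forms.

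Library totals ranged from 25899838 to 30795910 counts. The 10 genes together took from 0.669% of a library (shNSi light, culture 1) to 3.57% (shNSi heavy, culture 1), and GAPDH alone from 0.158% to 1.17%. The lowest count of any of them was 354 reads, for HK2 in shDAP5 light polysomes, and all 10 passed the filter on low counts in every comparison. Replicate libraries differed for these genes by a root mean square of 0.24 to 0.44 on the log2 scale in 5 of the 7 groups. In shNSi light polysomes and the shNSi moderate pool the figure was 1.20 and 1.39, so those 2 pairs stand apart. Among the markers of the cell line, VIM lay between 3960 and 5233 CPM (counts relative to TMM-scaled library size) in total mRNA, and the estrogen and progesterone receptors ESR1 and PGR were at most 0.385 CPM. ERBB2 was not absent, with 41.6 to 67.4 CPM. The summed markers of leukocytes and of fibroblasts, VWF for endothelium and ALB for liver each stayed at or below 0.498 CPM in total mRNA.

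EIF4G2, the silenced gene, had 1486 and 1431 CPM in total mRNA of the shNSi cultures 1 and 2, and 572 and 782 CPM in the shDAP5 cultures. Both silenced cultures were below both controls. The log2 change was −1.11 (SE 0.18, adjusted p = 0.0172). The call was lost without TMM scaling (−1.07, adjusted p = 0.0501) and without shDAP5 culture 1 (−0.90, adjusted p = 0.680), where 0 genes were called in all. With a culture left out, the line with 1 library is assumed to vary like the other line. Here and below, changes are shDAP5 against shNSi from edgeR's quasi-likelihood test, adjusted by the Benjamini-Hochberg method over all genes tested, with a threshold of 0.05, and CPM beside a change are scaled over the libraries of that comparison alone. For EIF4G2 the heavy polysome change of −0.86 (adjusted p = 0.0691) and the light one of −1.33 (adjusted p = 0.430) did not pass. For 1 gene alone, 2 cultures against 2 allow no exact permutation p below 0.333, so every test borrows its spread across genes.

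In total mRNA per kilobase of transcript, the 10 genes spanned from GAPDH to HK2. GAPDH had 3634 ± 274 CPM per kilobase in shNSi cells (SD, n = 2, scaled over all 14 libraries). ENO1 (1631 ± 265) and PKM (1575 ± 216) came next and overlapped each other. TPI1 (1050.2 ± 150), LDHA (974 ± 37.5) and ALDOA (886 ± 108) followed, each overlapping its neighbour in this order. PGK1 (182 ± 8.46) was apart from both its neighbours. PGAM1 (62.5 ± 0.80) lay within the spread of SLC2A1 (53.2 ± 16.1), and HK2 was the lowest at 8.84 ± 2.43. Apart from PGAM1, the enzymes downstream of HK2 were thus more abundant per length than the transporter and the hexokinase.

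The first comparison asked where these mRNAs sit on the gradient. In shNSi cells 9 of the 10 were higher in heavy than in light polysomes, where 29.8% of all 14798 genes tested were called higher. The median log2 heavy over light was 2.12 for the 10 genes and −0.13 for all genes. PGK1 had a ratio of 12.8 in culture 1 and 5.86 in culture 2. Its fitted log2 ratio, the highest of the 10, was 3.12 (SE 0.47, adjusted p = 9.34e-07). PKM (2.92), HK2 (2.74), ENO1 (2.63), GAPDH (2.24) and SLC2A1 (2.01) followed on the same log2 scale. PGAM1 (1.75), LDHA (1.44, adjusted p = 0.0103) and ALDOA (1.33, adjusted p = 0.0201) were the least of the 9.

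TPI1, the shortest of the 10 coding sequences, was the exception. Its heavy over light ratio was 1.00 in shNSi culture 1 and 0.414 in culture 2. The fitted log2 ratio was −0.64 (SE 0.45, adjusted p = 0.212) and did not pass the test. PGAM1, of nearly the same coding length, had ratios of 4.64 and 2.44. The replicates differed most for ALDOA, with 5.49 in culture 1 and 1.14 in culture 2, and for LDHA, with 5.35 and 1.38, whereas HK2 (6.98 and 6.43) and SLC2A1 (3.88 and 4.18) repeated closely. With limma on quantile-normalized values 6 of the 10 were called higher, where 3441 of 14798 genes were, and without TMM scaling 7, where 3310 were. GAPDH, LDHA and ALDOA lost the call with limma, and LDHA and ALDOA without TMM scaling.

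In shDAP5 cells 9 of 10 were again higher in heavy polysomes, where 24.8% of 15336 genes were called higher. PGK1, with ratios of 5.82 and 7.28, again had the highest fitted log2 ratio of the 10, at 2.70 (SE 0.36, adjusted p = 7.76e-12). ENO1 and GAPDH (both 2.50), PKM (2.43), PGAM1 (2.32), ALDOA (2.06) and LDHA (1.95) came next. HK2, with ratios of 3.43 and 2.37, had a fitted log2 ratio of 1.51, and SLC2A1, with 1.86 and 2.85, had 1.20. These were the lowest of the 9, and TPI1 was again not called, with ratios of 1.22 and 1.44 and a fitted log2 ratio of 0.41 (adjusted p = 0.408).

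**Figure D1:**
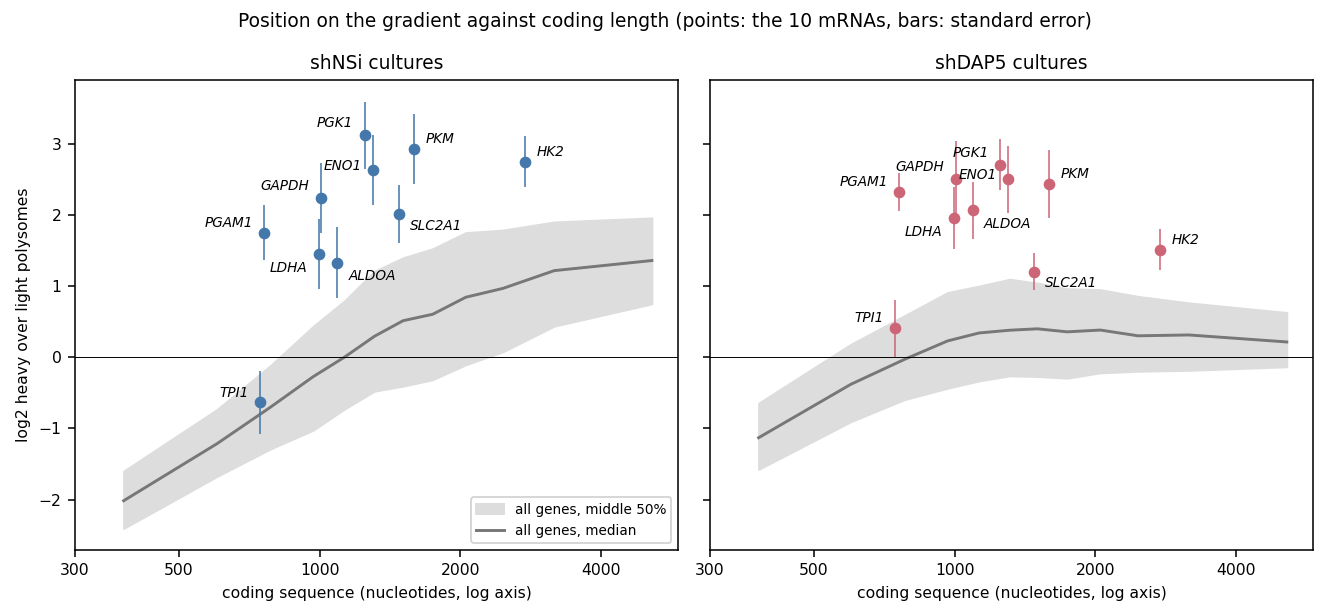
Log2 heavy over light polysomes of the 10 mRNAs against the length of the coding sequence in nucleotides (log axis), in shNSi cultures on the left and shDAP5 cultures on the right. Points are fitted values from 2 cultures with their standard errors, the grey line is the median of all genes in 12 bins of length and the band their middle 50%. In both panels 9 of the 10 lie above the band, and TPI1, at −0.64 and 0.41, lies inside it.

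Coding length moved with the position on the gradient across all genes in shNSi cells, as the plot of heavy over light against length shows. In shDAP5 cells it did so among short coding sequences only. The medians of the length bins there rose from −1.13 at 381 nucleotides to 0.40 at 1503, and the last was 0.21 at 5130. Across 12258 genes Spearman's rho between coding length and log2 heavy over light was 0.65 in shNSi cells, and across 12380 genes it was 0.30 in shDAP5 cells. Genes are not independent replicates, and both sets of values share libraries within a line. For GAPDH the log2 ratio in shNSi cells was 2.24, while the 1173 genes with a coding sequence within a factor of 1.1 of its length had a median of −0.20, with quartiles of −0.91 and 0.57. For TPI1, at −0.64, the 770 genes of like length had a median of −0.78, and for HK2, at 2.74, the 794 genes of like length had a median of 1.15. In shDAP5 cells the medians for the same lengths were 0.34 for GAPDH, −0.10 for TPI1 and 0.35 for HK2.

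The difference in heavy over light between the lines was tested directly, and 0 of the 10 were called by edgeR, where 6.75% of 15878 genes were called. At an unadjusted p under 0.05 there was 1 of the 10, and 3985 of all genes. The 1 was HK2, whose log2 ratio was 1.31 lower in shDAP5 cells (a change of −1.31, SE 0.40, adjusted p = 0.0508). DESeq2 called 1 of the 10, also HK2, and 1951 genes in all. With the length offset the change of HK2 was −0.51 (adjusted p = 0.413), and the 815 genes of like coding length had a median of −0.84. The other 9 ranged from −0.88 for SLC2A1 (adjusted p = 0.230) to 0.97 for TPI1 (adjusted p = 0.335). HK2 and SLC2A1 were lower in both shDAP5 cultures than in both shNSi cultures, TPI1 was higher in both, and the others overlapped.

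The shNSi moderate pools, scaled over all 14 libraries, did not sit at a fixed point between light and heavy. PKM in the moderate pool was 0.115 of its heavy level in culture 1 and 0.533 in culture 2, with 1158 and 6220.1 CPM. LDHA was 0.502 of its heavy level in culture 1 but 1.51 in culture 2, and ALDOA 0.445 and 1.60. TPI1 was the only one of the 10 with more in the moderate pool than in heavy polysomes in both cultures, by 2.14 and 2.24 times. HK2 in the moderate pool was 0.237 and 0.221 of its heavy level.

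The next comparison asked whether silencing DAP5 changed the mRNA levels. In total mRNA 0 of the 10 passed the edgeR test, where 0.354% of 14992 genes did. At an unadjusted p under 0.05 there were also 0 of the 10, and 1799 of all genes. DESeq2 called 0 of the 10 and 273 genes in all, and limma 0 and 35. GAPDH had 6887 and 7557 CPM in shNSi and 7263 and 6597 in shDAP5 cultures. The groups overlapped, and the log2 change was −0.06 (SE 0.15, adjusted p = 0.934). HK2 had 65.1 and 43.3 CPM in shNSi and 35.0 and 44.1 in shDAP5 cultures. Its log2 change of −0.45 (SE 0.23, adjusted p = 0.454) ran from −0.72 to −0.16 when 1 culture was left out, and 1 control culture lay below 1 silenced culture. SLC2A1 had 164 and 249 against 130.0 and 188 CPM, a log2 change of −0.38 (SE 0.24, adjusted p = 0.585), again with overlap and a range of −0.69 to −0.045 with 1 culture left out. The 8 other log2 changes lay between −0.22 for ALDOA and 0.10 for TPI1.

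In heavy polysomes, the well-translated fraction, 3 of the 10 passed: HK2 and SLC2A1 fell, and TPI1 rose. In that comparison 30.9% of 14270 genes were called, 16.7% lower and 14.2% higher, so the share among the 10 was near the background. All 5 markers of the cell line (VIM, CD44, EGFR, FN1 and SPARC) also fell in heavy polysomes, with a median log2 change of −1.84. Their summed level in total mRNA was 6030.0 to 6398 CPM in shNSi and 4402 to 4734 in shDAP5 cultures, where 0 of the 5 were called. The part of that shift in the changes of the 10 was not tested. In bulk libraries a lower share can mean fewer cells holding the mRNA or less of it per cell, and the 2 cannot be told apart. In heavy polysomes it can also mean that less of the mRNA sat in that pool, or that the pools were cut unlike, which was not tested.

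HK2 had 106 and 100.1 CPM in heavy polysomes of shNSi cultures and 36.0 and 24.9 CPM in those of shDAP5 cultures. Both silenced cultures were far below both controls, with no overlap. The log2 change was −1.76 (SE 0.34, adjusted p = 1.57e-05), which is 0.296 of the control level. Genes of like coding length (788 within a factor of 1.1) had a median change of −0.72. The call held in DESeq2, in limma and with an offset for coding length (−1.13, adjusted p = 0.0139). It was lost without shDAP5 culture 2 (−1.53, adjusted p = 0.0985), where 2 of 14891 genes were called in all, and with heavy and moderate counts summed as the shNSi control (−1.01, adjusted p = 0.0961). With the shNSi moderate pool alone as control the change was 0.20 (adjusted p = 1.00).

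SLC2A1 had 277 and 494 CPM in heavy polysomes of shNSi cultures and 109.9 and 200.5 CPM in those of shDAP5 cultures. Both silenced cultures were below both controls, but the spread within each line was wide. The log2 change was −1.31 (SE 0.36, adjusted p = 0.00299), and the 1422 genes of like coding length had a median of −0.16. Leaving out shNSi culture 2 (−0.85, adjusted p = 0.120), shDAP5 culture 1 (−1.02, adjusted p = 0.132) or shDAP5 culture 2 (−1.83, adjusted p = 0.100) ended the call. Against the shNSi heavy and moderate pools summed the change was −0.76 (adjusted p = 0.371), and against the moderate pool alone it was −0.01 (adjusted p = 1.00).

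TPI1 went the other way, with 952 and 870.4 CPM in heavy polysomes of shNSi cultures and 1592 and 2016 CPM in those of shDAP5 cultures. Both silenced cultures were above both controls. The log2 change was 0.99 (SE 0.38, adjusted p = 0.0374), a rise to 1.98 times the control level, and the 757 genes of like coding length had a median of 0.54. The call ended with the offset for coding length (0.41, adjusted p = 0.345), without a filter on low counts (0.90, adjusted p = 0.0796) and when any 1 culture was left out (0.79 to 1.09, adjusted p from 0.0783 to 0.272). With the summed control it was 0.14 (adjusted p = 0.958), and with the moderate pool alone −0.32 (adjusted p = 1.00).

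**Figure D2:**
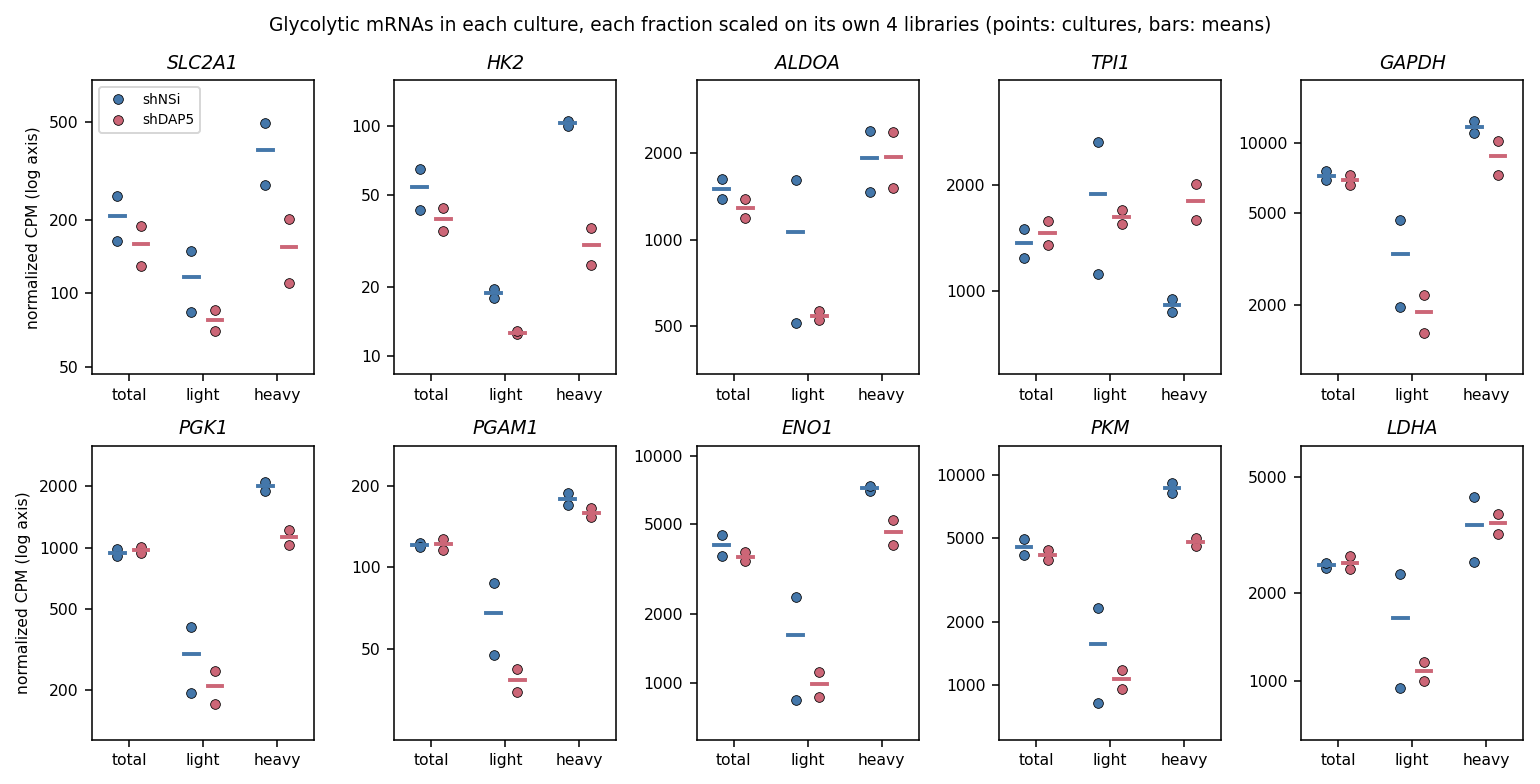
Normalized CPM of each of the 10 mRNAs (log axis) in total mRNA, light polysomes and heavy polysomes, with 1 point per culture, shNSi in blue and shDAP5 in red, and bars for the means of 2 cultures. Each fraction is scaled on its own 4 libraries, so heights are compared between lines within a fraction and not between fractions. In heavy polysomes HK2 lies at 106 and 100.1 CPM in shNSi and at 36.0 and 24.9 in shDAP5, while most genes overlap in total mRNA and the shNSi light points lie far apart for all but HK2.

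The enzymes of the payoff phase did not pass in heavy polysomes. PGK1 had 2109.6 and 1906 CPM in shNSi against 1219 and 1032 in shDAP5 cultures, with no overlap, and a log2 change of −0.84 (SE 0.38, adjusted p = 0.0807). PKM had 8141 and 9142 against 4577 and 5002 CPM, also with no overlap, and a log2 change of −0.85 (SE 0.40, adjusted p = 0.0856). DESeq2 called both of these lower, and edgeR did not.

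ENO1 had 7012 and 7401 CPM in shNSi against 4066 and 5213 in shDAP5 cultures, a log2 change of −0.64 (SE 0.39, adjusted p = 0.211). GAPDH had 12391 and 11032 against 7274 and 10202 CPM. Its log2 change was −0.42 (SE 0.40, adjusted p = 0.430), and both silenced cultures were below both controls. Genes of the coding length of GAPDH had a median change of 0.27.

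LDHA, ALDOA and PGAM1 were the closest to 0. LDHA had 4285 and 2569.9 CPM in shNSi and 3204 and 3758 in shDAP5 cultures, so the groups overlapped, with a log2 change of 0.02 (SE 0.39, adjusted p = 0.971). ALDOA had 2385 and 1468 against 1516 and 2372 CPM, with a log2 change of 0.01 (SE 0.38, adjusted p = 0.982). PGAM1 had 187 and 170.0 against 153 and 166 CPM, with a log2 change of −0.16 (SE 0.34, adjusted p = 0.744). For each of them the standard error was larger than the change itself.

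**Figure D3:**
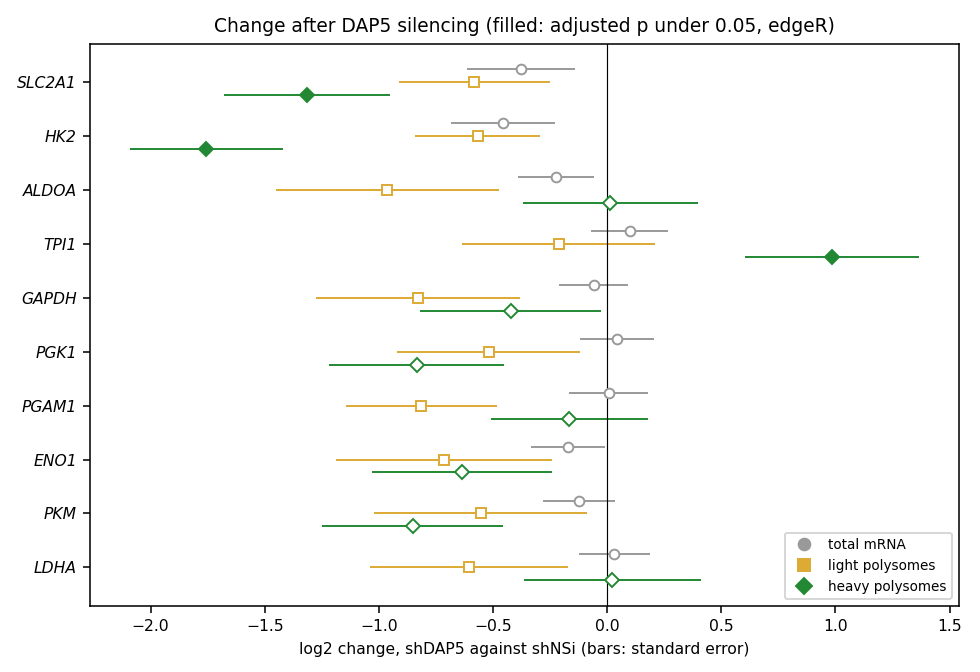
Log2 change of each mRNA, shDAP5 against shNSi, in total mRNA (grey circles), light polysomes (yellow squares) and heavy polysomes (green diamonds), with bars for the standard error and filled symbols for an adjusted p under 0.05. Only heavy polysomes hold filled symbols, for SLC2A1 at −1.31, HK2 at −1.76 and TPI1 at 0.99.

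Translation efficiency was taken as the change in heavy polysomes beyond the change in total mRNA, in 1 fit of 8 libraries with a term for each culture. It shares the heavy libraries with the comparison above. HK2 was the only one of the 10 past the threshold, where 13.1% of 15374 genes were called, and the share among the 10 was again near the background. Heavy over total for HK2 was 1.85 and 2.79 in shNSi and 1.19 and 0.659 in shDAP5 cultures, without overlap. The log2 change was −1.36 (SE 0.35, adjusted p = 0.0126). It was no longer called without shNSi culture 1 (−1.66, adjusted p = 0.0501), shNSi culture 2 (−1.09, adjusted p = 0.584) or shDAP5 culture 2 (−0.93, adjusted p = 0.149), nor with the length offset (−0.74, adjusted p = 0.0960), without TMM (−1.14, adjusted p = 0.0946), without a term for each culture (−1.32, adjusted p = 0.116) or with the summed control (−0.50, adjusted p = 1.00). With the moderate pool alone as control it was 0.60 (adjusted p = 1.00). Without TMM, without the culture term and with either of these controls 0 genes were called in all.

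SLC2A1 had heavy over total ratios of 1.92 and 2.39 in shNSi and 0.980 and 1.24 in shDAP5 cultures, a log2 change of −0.96 (SE 0.34, adjusted p = 0.0523). PGK1 had 2.44 and 2.53 against 1.41 and 1.27, a log2 change of −0.90 (SE 0.38, adjusted p = 0.103). DESeq2 called both. PGK1 was also called with the length offset (−0.94, adjusted p = 0.0348) and without shDAP5 culture 1 (−0.97, adjusted p = 0.0492). TPI1 had 0.872 and 0.701 against 1.17 and 1.73, a log2 change of 0.86 (SE 0.39, adjusted p = 0.124). On this scale TPI1 was the only one of the 10 below 1 in both shNSi cultures. Scaled over all 14 libraries its shNSi ratios were 1.01 and 0.780. It was called by limma (1.18, adjusted p = 0.0297) and without shDAP5 culture 1 (1.15, adjusted p = 0.0209). PKM (−0.75), ENO1 (−0.49), GAPDH (−0.39), PGAM1 (−0.18), LDHA (0.02) and ALDOA (0.23) did not pass, with adjusted p of 0.228 or more.

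In light polysomes 0 of the 10 passed the edgeR test, and 0% of 15529 genes did. At an unadjusted p under 0.05 there were 1330 genes, and 1 of the 10, PGAM1. DESeq2 called 103 genes in all and 0 of the 10. All 10 log2 changes were below 0, with a median of −0.59 against −0.01 for all genes tested. GAPDH had 1966 and 4653 CPM in shNSi and 2216 and 1513 in shDAP5 cultures, so shNSi culture 1 lay among the silenced cultures and culture 2 far above them. Its log2 change was −0.83 (SE 0.45, adjusted p = 0.622).

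For ALDOA, PKM and ENO1 shNSi culture 1 lay below both silenced cultures and culture 2 above both. ALDOA had 512 and 1616 CPM against 565 and 526, PKM had 826 and 2323 against 1185 and 961, and ENO1 had 840.4 and 2394 against 1113 and 860.0. HK2 differed less between the controls, with 17.9 and 19.6 CPM against 12.5 and 12.8, a log2 change of −0.57 (SE 0.27, adjusted p = 0.591). PGAM1 had 47.6 and 87.8 against 42.1 and 34.8 CPM, a log2 change of −0.81 (SE 0.33, adjusted p = 0.559). The light result rests on which shNSi culture is kept: without culture 1 all 10 were called lower, as were 2637 of 16190 genes. Without culture 2 none of the 10 was called, where 781 of 16193 genes were, and 6 of the 10 changes were above 0. Each of these tests sets 1 shNSi library against 2 of shDAP5. With the shNSi moderate pool as control 7 of the 10 were called lower, as were 2001 of 15431 genes.

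Light translation efficiency, the light change beyond that in total mRNA, gave 0 of the 10 by edgeR, and 0% of 15967 genes. At an unadjusted p under 0.05 there were 833 genes and 1 of the 10, again PGAM1 (log2 change −0.73, SE 0.28, adjusted p = 0.879). DESeq2 called 0. Without shNSi culture 1, 8 of the 10 were called lower, as were 1236 of 16467 genes. Without shNSi culture 2 none of the 10 was called, where 21 of 16595 genes were, and 7 of the 10 changes were above 0. With the moderate pool as control 7 of the 10 were called lower, as were 2181 of 15859 genes.

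Other genes of glucose use were then counted, from 7 lists of 65 genes in all: other isozymes and steps of glycolysis, other glucose transporters, regulators of flux, lactate handling, pyruvate entry into mitochondria, the pentose phosphate pathway and gluconeogenesis. In total mRNA 0 of 50 tested were called by edgeR. In heavy over light 34 of 51 tested were called higher and 8 lower within shNSi cells, where 4403 and 4771 of 14798 genes were. Within shDAP5 cells 30 and 5 of 50 were, where 3808 and 3852 of 15336 genes were. In heavy polysomes 13 of 51 tested fell and 4 rose, against the background of 16.7% and 14.2%, and their median log2 change was −0.42, where that of all genes was 0.09. Without shDAP5 culture 2 only 2 of 14891 genes were called in all, so most of these calls end there, and 50 of 14539 were with the moderate pool as control.

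Of the 10 tested in the list of other glycolytic steps, 4 fell. HK1, the other widely expressed hexokinase, had 855 and 1284 CPM in heavy polysomes of shNSi and 264 and 203 in those of shDAP5 cultures, scaled over all 14 libraries, with no overlap. Its log2 change was −2.01 (SE 0.38, adjusted p = 1.45e-05). PFKM and PFKP encode phosphofructokinase, which catalyses the committed step of glycolysis. PFKM had 336 and 445 against 145 and 123 CPM (log2 change −1.36, adjusted p = 0.0017), and PFKP had 948 and 1139.7 against 374 and 356 CPM (log2 change −1.33, adjusted p = 0.00362). Both silenced cultures were below both controls for each.

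The transporter SLC2A3 (log2 change −0.88, adjusted p = 0.0302) fell as well, as did PFKFB2 (−0.95), which sets the level of an activator of phosphofructokinase, and ADPGK (−1.24), an ADP-using glucokinase. The lactate and pyruvate carrier SLC16A7 (−1.11), the pyruvate dehydrogenase subunits DLAT (−0.92) and DLD (−1.11), and the pentose phosphate enzymes PGD (−1.20) and TKT (−1.06) were also called lower. The 4 that rose were the mitochondrial pyruvate carrier subunits MPC1 (1.18, adjusted p = 0.00542) and MPC2 (1.03, adjusted p = 0.0116), the pentose phosphate enzyme PGLS (0.96, adjusted p = 0.018) and the gluconeogenic FBP1 (1.47, adjusted p = 0.00107). FBP1 was low, with 12.1 and 4.22 CPM in heavy polysomes of shNSi and 18.3 and 21.9 in those of shDAP5 cultures.

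The 11 of these that fell and had a mean of at least 10 CPM in total mRNA had coding sequences of 1434 to 2751 nucleotides, and the 4 that rose had 327 to 1014. Across 12133 genes Spearman's rho between coding length and the change in heavy polysomes was −0.65. That correlation is across genes of the same 4 libraries. In heavy translation efficiency 4 of the 51 fell (HK1, PFKM, PFKP and DLAT) and 3 rose (MPC1, PGLS and RPIA), against 8.23% and 4.85% of all genes. The part of coding length in these changes was not tested beyond the length offset.

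**Figure D4:**
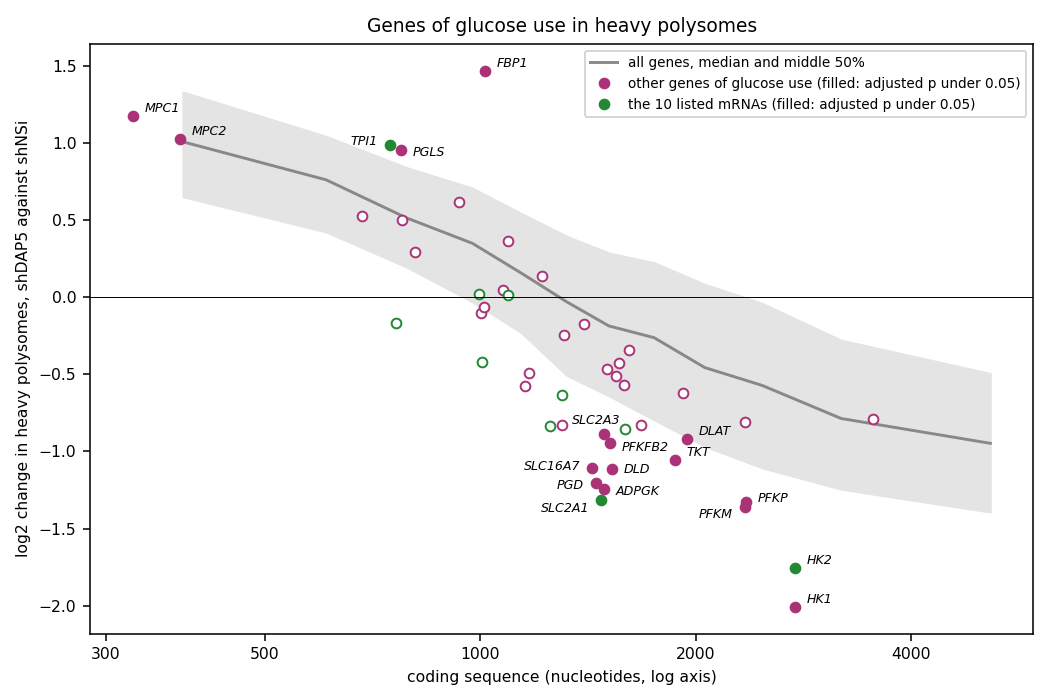
Log2 change in heavy polysomes, shDAP5 against shNSi, of the 10 mRNAs (green) and of 38 other genes of glucose use with at least 10 CPM that passed in at least 1 comparison (purple), against coding length in nucleotides (log axis). Filled points have an adjusted p under 0.05, and the grey line and band are the median and middle 50% of all genes by length. HK1 at −2.01 and HK2 at −1.76 lie lowest, below the band, and MPC1, MPC2, PGLS, TPI1 and FBP1 are the filled points above 0.

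The genes with the profile nearest to that of GAPDH over the 14 libraries, among 9242 genes with at least 10 CPM, were CNP, PDHA1, IDH3B, GSS and MDH1. Nearness was the root mean square difference of centred log2 CPM, from 0.126 for CNP to 0.157 for MDH1. Of the other glycolytic mRNAs ENO1 ranked 41, PGAM1 69, PGK1 131, ALDOA 152, LDHA 208 and PKM 312. SLC2A1 ranked 910, HK2 1353 and TPI1 5606. These ranks use the heavy libraries too, so they are no separate evidence on the calls there. By the same measure around HK2, among the 10, PGK1 was the nearest to HK2 at rank 1314 and TPI1 the farthest at 6691.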

How the data were processed

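RNA from 14 libraries of MDA-MB-231 cells was sequenced by the authors as single reads. The authors deposited read counts per gene symbol, as whole numbers without normalization. The submitters' processing notes name STAR 2.6.0a, limma and hg19. The name of the deposited table points to featureCounts and a reverse-strand setting. The annotation and the handling of shared reads are not given in the sources used here, so reads of overlapping genes cannot be set apart. Groups came from the sample titles. In R 4.3.3, edgeR 4.0.16 (filterByExpr, TMM scaling, robust quasi-likelihood fit) was run once per comparison over all genes, with Benjamini-Hochberg adjustment at 0.05. Comparisons of fractions held a term for each culture. The tests were checked on simulated counts.

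Depth was 25899838 to 30795910 counts per library, with 2 cultures per group. DESeq2 1.42.0, limma 3.58.1 on quantile-normalized log2(CPM + 1), other filters and scalings, an offset for coding length (lowess span 0.3), added pseudogene counts, other control pools and each culture left out were alternatives. Coding lengths, start codons and sequences came from GENCODE v29, which was matched by symbol. Its GRCh38 coordinates were not used to read counts.

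The genes, lists and comparisons were chosen with earlier results of these data known. Named were the 10 genes, EIF4G2, listed genes with a mean of at least 10 CPM in total mRNA that passed in at least 1 comparison, and the 5 profiles nearest to GAPDH and to HK2, the latter not reported here. Listed genes that passed only in comparisons of heavy with light are given as counts over the lists. Pseudogenes of the 10 held at most 2.49% of the reads of their gene (PGAM1) in any library.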

Additional observations from a re-analysis of the deposited data

How the results depend on the processing

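Of 1030 values of the 10 genes under alternatives, 865 were counted as keeping their direction and side of the threshold. A further 28 lost and 48 gained the call, and 89 changed sign. Of those 89, 3 were called in the main analysis (HK2 in heavy polysomes and heavy translation efficiency, and TPI1 in heavy polysomes, each with the moderate pool as control). The cause of these changes was not tested. Heavy over light within a line had no test when a culture was left out. Those values were counted as kept unless a called gene changed sign, so no threshold was applied to them. TPI1 within shNSi cells was counted so at 0.00066 without culture 2, against −0.64 in the main fit. The lowest count of any of the 10 was 354 reads, and the number of cultures per group, 2, limits the precision.

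With DESeq2, 5 of the 10 were called in heavy polysomes (3999 of all genes), 3 in heavy translation efficiency (2086) and 1 in the difference of heavy over light (1951). Its log2 changes of opposite sign were −0.061 for LDHA and −0.069 for ALDOA in heavy polysomes, −0.049 for LDHA in heavy translation efficiency and −0.014 for PGAM1 in total mRNA. With at least 10 counts in every library (1437 of all genes) and with no filter (1526), 1 of the 10 was called in the difference of heavy over light. With no filter the signs changed for LDHA (−0.052) and ALDOA (−0.063) in heavy polysomes, LDHA (−0.0046) in heavy translation efficiency and PGAM1 (−0.022) in total mRNA. Library size without TMM gave 0 calls among the 10, and 0 in all, in heavy translation efficiency and turned ENO1 in the difference of heavy over light (0.036) and PGAM1 in heavy polysomes (0.075) and heavy translation efficiency (0.032).

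Limma on quantile-normalized values called 2 in heavy translation efficiency (1406 of all genes). It turned GAPDH (0.15), ENO1 (0.10) and PGAM1 (0.12) in heavy polysomes, and GAPDH (0.010), ENO1 (0.10) and PGAM1 (0.066) in heavy translation efficiency. It also turned PKM (0.18) and ENO1 (0.57) in the difference of heavy over light, TPI1 (0.0037) in light polysomes, and GAPDH (0.14), PKM (0.10) and LDHA (−0.014) in total mRNA. The coding length offset turned TPI1 in heavy over light within shNSi (0.13), GAPDH (−0.19) and PGAM1 (−0.11) in the difference of heavy over light, LDHA (−0.26) and ALDOA (−0.18) in heavy polysomes, LDHA (−0.27) in heavy translation efficiency and PGAM1 (−0.017) in total mRNA. With no term for each culture, 0 of the 10 and 0 genes in all were called in heavy translation efficiency, and LDHA was −0.011 there. Pseudogene counts changed no call of the 10.

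With the shNSi moderate pool as control, 0 of the 10 were called in heavy polysomes (50 of all genes) and 0 in heavy translation efficiency (0), and 7 in light polysomes (3940) and 7 in light translation efficiency (4367). Heavy polysome changes became 0.19 for GAPDH, 0.54 for PKM, 0.35 for ENO1, 0.61 for PGK1, −0.32 for TPI1 and 0.20 for HK2. Heavy translation efficiency became 0.35 for GAPDH, 1.102 for PKM, 0.84 for ENO1, 0.73 for PGK1, −0.43 for TPI1, 0.60 for HK2 and 0.54 for SLC2A1. With heavy and moderate summed, 0 were called in either (421 and 0 of all genes), and heavy translation efficiency was 0.038 for GAPDH, 0.012 for PKM, 0.12 for ENO1 and 0.0026 for PGAM1.

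The study was run as independent sets, but the labels do not say which cultures of the lines share a set, and deviations of same-numbered cultures correlated from −0.18 to 0.05 over the comparisons of the lines. With the replicate number as a block, 2 of the 10 were called in heavy polysomes (TPI1 was lost, at 0.98, adjusted p = 0.106) and 1 in heavy translation efficiency, and all genes called were 365 in total mRNA, 4710 in heavy polysomes, 130 in light polysomes and 688 in heavy translation efficiency. With those numbers swapped between the lines (crossed pairing), an alternative chosen after seeing the data, the block gave 4 of the 10 in heavy translation efficiency and 1 in the difference of heavy over light, and 4133 and 2238 genes in all.

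With each culture left out, calls among the 10 ran from 0 to 2 in heavy polysomes, 0 to 10 in light polysomes, 0 to 3 in heavy translation efficiency, 0 to 8 in light translation efficiency and 0 to 1 in the difference of heavy over light. Over all genes the same calls ran from 2 to 3559, 2 to 4678, 4 to 4515, 0 to 2030 and 2 to 2929 in that order. In total mRNA the changes ran from −0.047 to 0.086 for LDHA, −0.064 to 0.24 for TPI1, −0.068 to 0.058 for PGAM1, −0.16 to 0.0057 for GAPDH, −0.28 to 0.010 for PKM and −0.016 to 0.071 for PGK1. In heavy polysomes they ran from −0.32 to 0.32 for LDHA and −0.36 to 0.29 for ALDOA, and in heavy translation efficiency from −0.36 to 0.37 for LDHA and −0.22 to 0.66 for ALDOA. In light polysomes the ranges were −1.13 to 0.37 for PKM, −1.13 to 0.19 for LDHA, −1.29 to 0.23 for ENO1, −1.58 to 0.087 for ALDOA, −0.97 to 0.12 for PGK1 and −0.72 to 0.53 for TPI1. In light translation efficiency they were −0.82 to 0.34 for PKM, −1.07 to 0.11 for LDHA, −0.92 to 0.21 for ENO1, −1.18 to 0.18 for ALDOA, −1.04 to 0.091 for PGK1, −0.62 to 0.28 for TPI1 and −0.44 to 0.21 for HK2. In the difference of heavy over light they were −1.19 to 0.078 for PKM, −0.88 to 0.50 for ENO1, −1.06 to 0.11 for PGK1, −0.48 to 0.88 for GAPDH, −0.55 to 1.44 for LDHA and −0.48 to 1.83 for ALDOA.

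Over all alternatives the count of all genes called ran from 0 to 577 in total mRNA (main 53), 2 to 4710 in heavy polysomes (main 4414), 0 to 4678 in light polysomes (main 0), 0 to 4515 in heavy translation efficiency (main 2012), 0 to 4367 in light translation efficiency (main 0), 5650 to 9520 and 5785 to 8193 in heavy over light within shNSi and shDAP5 (main 9174 and 7660), and 0 to 2929 in their difference (main 1072). The lowest counts in heavy polysomes and in total mRNA came without shDAP5 culture 2 and without shDAP5 culture 1. Within a line no test was run with a culture left out, so the counts of heavy over light within shNSi and shDAP5 leave out those settings.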
